A study of Mus musculus with 10 samples.

Results

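Slc5a1, Slc6a14, Hcar2, Acpp and Nppb are 5 genes whose RNA stood higher after IL-17A in primary mouse keratinocytes, the main cells of the epidermis. They were found by matching the Ensembl identifiers of the deposited table to these symbols (Acpp is also called Acp3), and make up 5 of its 37991 rows. All 5 passed the filter of a mean of at least 1 FPKM (fragments per kilobase of gene model, scaled to the mapped fragments of the library), as did 12054 rows in all. Slc5a1 passed it only through its IL-17A libraries, since its unstimulated libraries were all under 1 FPKM (0.444 to 0.812). The genes had been chosen for their IL-17A change in these libraries, so that change is described below without a test. Slc5a1 and Slc6a14 encode transporters and Nppb a secreted hormone. Hcar2 encodes a cell-surface receptor and Acpp a phosphatase with membrane and secreted forms, so the 5 genes are not all transporters or secreted proteins.

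The study compared 10 libraries from 5 cultures to ask what loss of BCL10 does to keratinocytes at rest and to their response to IL-17A. Cells came from the skin of pups at postnatal day 4 to 5 on the allele Bcl10tm1Mak, either Bcl10-/- (KO, 2 cultures) or Bcl10+/- (Het, 3 cultures, littermates of the KO), so the Het controls carry 1 mutant copy too and no group is wild type. Per the labels' protocols, cells of all groups grew on collagen in serum-free medium with 0.05 mM calcium chloride. Each culture, here a genotype and number in the labels, gave 1 library after 5 h with 200 ng/mL recombinant mouse IL-17A and 1 unstimulated library. The labels do not say whether a number stands for a pup, a litter or a well, so p-values measure the spread between libraries, which may be partly technical.

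The genotype labels were checked on Bcl10 itself. Bcl10 was at 16.4 FPKM with IL-17A and 0.969 unstimulated in KO culture 1, and at 16.6 and 16.998 in KO culture 2. It was at 72.3 and 67.004 in Het culture 2, at 60.6 and 59.5 in Het culture 3, but at 16.3 and 18.0 in Het culture 1, the level of the libraries labelled KO. Both libraries of Het culture 1 were thus unlike the other libraries of their label, and the libraries of KO culture 1 differed from each other. Whether any label is wrong was not tested. KO and Het below name the labels, and the stretch of Bcl10 removed by the allele is not stated in the sources, so RNA from the rest of the gene may be counted. Het cultures 2 and 3 are also the libraries numbered 33 to 38 in the labels, and the other 3 cultures are numbered 1 to 14, so high Bcl10 and the number set cannot be told apart. Estimated depth was 15.9 to 50.8 M fragments per library. Krt5, the basal keratinocyte keratin, was at 4430 to 6426 FPKM, and 5 of 7 leukocyte markers (Ptprc, Itgam, Cd3e, Cd207 and Lyz2) were listed at 0 in every library. Of the other leukocyte markers, Cd68, a lysosomal protein of macrophages, was at 5.10 to 10.5 FPKM. Fibroblast markers summed to at most 28.7 FPKM and were high in KO culture 2 alone, where Col1a1 was at 10.6 FPKM with IL-17A and 10.8 unstimulated.

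IL-17A binds a receptor on keratinocytes whose adaptor ACT1 acts through NF-κB and C/EBP transcription factors and the co-regulator IκBζ, and by lengthening the life of mRNAs that carry AU-rich stretches in their 3′ UTR. It is known in skin for inducing chemokines, antimicrobial proteins and IL-36 cytokines. SLC5A1 (SGLT1) carries glucose and galactose into cells together with sodium, and is best known from the gut. SLC6A14 is a sodium- and chloride-driven transporter of neutral and cationic amino acids. HCAR2 (GPR109A) is a Gi-coupled receptor for butyrate, β-hydroxybutyrate and niacin, and mediates the niacin flush in skin. ACPP (prostatic acid phosphatase) removes phosphate groups and, in its membrane form, turns extracellular AMP into adenosine. NPPB is the precursor of brain natriuretic peptide, which acts on guanylyl cyclase receptors and, from sensory neurons, in itch.

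The sequences before the genes' start sites are shown because the 5 genes were higher together after IL-17A, and capitals mark the one motif match among them. They come from RefSeq promoters of assembly GRCm38.p6, cut to the bases before the transcript models of the GRCm38 annotation, and are read 5′ to 3′ on the gene's strand. The windows are chr5:33103969-33104218 on the plus strand for Slc5a1, chrX:21714650-21714895 on the plus strand for Slc6a14, chr9:104337749-104337972 on the minus strand for Acpp and chr4:147985650-147985787 on the plus strand for Nppb.
Slc5a1: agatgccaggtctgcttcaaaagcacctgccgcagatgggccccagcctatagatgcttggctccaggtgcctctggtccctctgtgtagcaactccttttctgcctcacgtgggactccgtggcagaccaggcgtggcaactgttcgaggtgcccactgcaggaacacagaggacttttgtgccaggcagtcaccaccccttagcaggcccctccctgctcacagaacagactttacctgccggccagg
Slc6a14: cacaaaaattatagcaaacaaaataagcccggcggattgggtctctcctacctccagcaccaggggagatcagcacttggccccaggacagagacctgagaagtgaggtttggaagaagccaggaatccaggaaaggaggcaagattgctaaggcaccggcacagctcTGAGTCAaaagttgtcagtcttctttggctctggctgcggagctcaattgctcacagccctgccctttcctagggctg
Acpp: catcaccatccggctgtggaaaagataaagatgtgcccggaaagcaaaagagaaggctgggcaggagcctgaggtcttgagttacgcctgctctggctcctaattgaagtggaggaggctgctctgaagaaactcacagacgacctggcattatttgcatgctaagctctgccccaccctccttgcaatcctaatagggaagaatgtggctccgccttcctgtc
Nppb: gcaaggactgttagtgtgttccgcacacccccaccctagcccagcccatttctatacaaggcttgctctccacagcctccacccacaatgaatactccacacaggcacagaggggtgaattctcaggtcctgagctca

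The 250 bases before the RefSeq start sites of these 4 genes were searched on both strands for the NF-κB consensus (by name), the C/EBP motif TTGCNNAA and the AP-1 motif TGANTCA, and on the gene's strand for TATAAA. The matches found do not overlap each other. Slc6a14 held TGAGTCA, an AP-1 match, 82 bases before its start. Nppb held TATAAA 31 bases before its RefSeq start, in a stretch that the annotation counts as transcribed and that is not printed. Of 32817 RefSeq promoters, 6.75% held the AP-1 motif, 7.60% TATAAA, 9.57% the C/EBP motif and 3.90% the NF-κB consensus. The letters of the C/EBP and NF-κB motifs were in none of the 4 windows.

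At the other end of the transcript, Nppb stood apart from the other 4 genes. Its 3′ UTR of 227 bases held ATTTA, the core of AU-rich elements, 6 times. The longest run lies 85 to 113 bases into that UTR and is shown because it holds 5 overlapping copies of TATTTAT, marked by the capitals.
Nppb: ccTATTTATTTATTTATTTATATTTATtt
This is 26.4 ATTTA per kb, a higher density than in 99.96% of 9805 tested genes with an annotated 3′ UTR, whose median was 1.42 per kb. The longest 3′ UTR of each gene was taken and very short ones were left out. Those UTRs had a median of 1230 bases, far longer than that of Nppb, and densities were not compared at equal length. Acpp held 6 ATTTA in 3160 bases (1.90 per kb), with 2 TATTTAT, Slc5a1 3 in 1868 bases (1.61), Slc6a14 2 in 1265 bases (1.58) and Hcar2 1 in 786 bases (1.27). These 4 densities are higher than in 60.7%, 54.5%, 53.6% and 46.5% of the tested genes. In all, 72.7% of those genes held ATTTA and 31.7% held TATTTAT, so a match alone is common and the density of Nppb is not.

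Slc5a1 (ENSMUSG00000011034, GRCm38 chr5:33104219-33162870, plus strand, 15 exons), the glucose and galactose carrier, was the lowest of the 5 genes and had the largest ratio. It was at 2.20 and 2.05 FPKM in the KO libraries with IL-17A, against 0.604 and 0.626 in the unstimulated KO libraries. In the Het libraries it was at 2.11, 1.92 and 2.59 FPKM with IL-17A, against 0.483, 0.444 and 0.812 unstimulated. Every IL-17A library lay above every unstimulated one, and KO and Het libraries overlapped in both conditions. The ratios by culture ran between 3.19 and 4.38, with a geometric mean of 3.73. On the log2(FPKM + 1) scale the change was 1.00 ± 0.06 (SD over 5 cultures). This scale compresses both the change and its spread where the level is near or under 1 FPKM, and with a pseudocount of 0.1 the change was 1.73. The mean level of 1.39 FPKM was above that of only 4.76% of tested genes. At the estimated depth the lowest library held about 32 fragments of Slc5a1, for which counting alone gives a spread of 17.7%. Both overlapping pseudogene models and, for Slc6a14, an overlapping rRNA model were listed at 0.

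Slc6a14 (ENSMUSG00000031089, chrX:21714896-21742355, plus strand, 14 exons), the broad amino acid transporter, had the largest change on the log2(FPKM + 1) scale, and its level depended on the culture. It was at 8.49 and 9.85 FPKM in the KO libraries with IL-17A, against 3.91 and 3.95 unstimulated. In Het culture 1 it was at 11.5 FPKM with IL-17A and 3.30 unstimulated, close to the KO libraries. In Het cultures 2 and 3 it was at 29.8 and 33.9 FPKM with IL-17A, against 13.6 and 12.8 unstimulated. The unstimulated libraries of Het cultures 2 and 3 thus lay above all IL-17A libraries of the other 3 cultures. The ratios were between 2.17 and 3.48 (geometric mean 2.56), and the log2 change was 1.21 ± 0.23 (SD, n = 5). In FPKM the gain was between 4.58 and 21.2, so similar ratios sat on unequal levels.

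**Figure D1:**
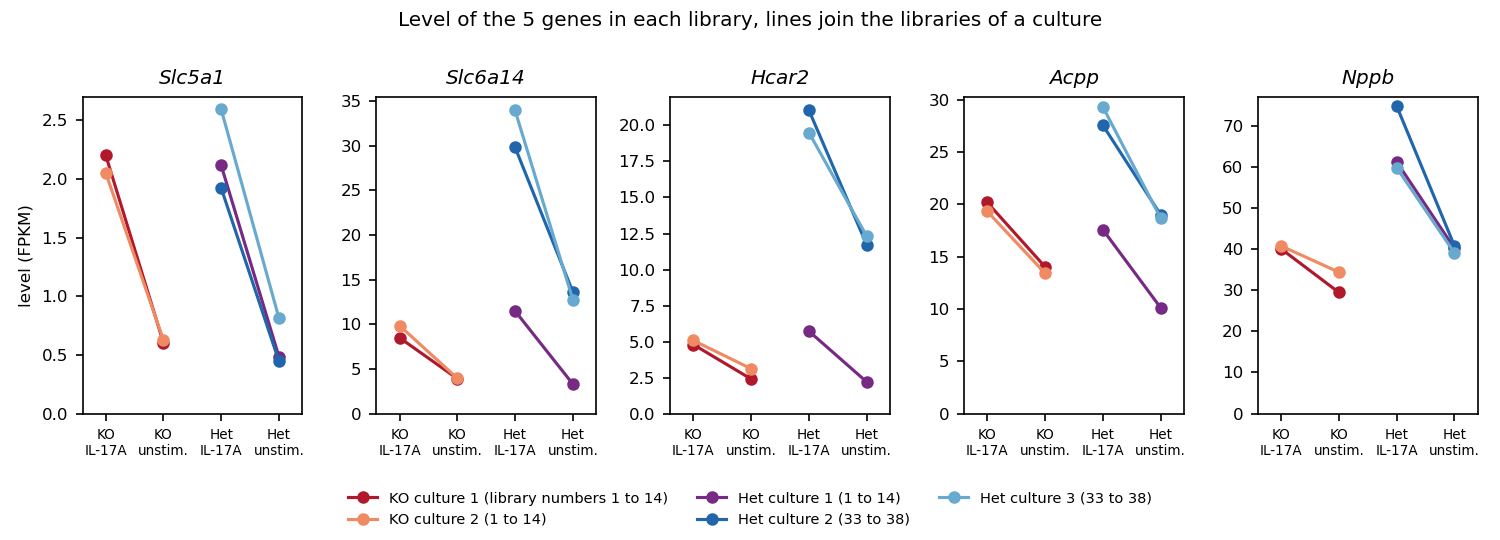
Level in FPKM (linear axis from 0, one scale per gene) of the 5 genes in each of the 10 libraries, with lines joining the IL-17A and unstimulated library of a culture. Each line is higher at its IL-17A end. Within each condition, Het cultures 2 and 3 (blue) lie above Het culture 1 (purple) and both KO cultures (red) for Slc6a14, Hcar2 and Acpp. For Nppb all 3 Het cultures lie above the KO cultures within each condition.

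Hcar2 (ENSMUSG00000045502, chr5:123863570-123865499, minus strand, 1 exon), the butyrate and niacin receptor, had the same split between cultures. It was at 4.79 and 5.07 FPKM in the KO libraries with IL-17A, against 2.39 and 3.11 unstimulated. Het culture 1 had 5.71 FPKM with IL-17A and 2.19 unstimulated. Het cultures 2 and 3 had 21.0 and 19.5 FPKM with IL-17A, against 11.7 and 12.3 unstimulated. As for Slc6a14, these unstimulated levels exceeded every IL-17A level of the other 3 cultures. The ratios were between 1.58 and 2.61 (geometric mean 1.89), the highest in Het culture 1, and the log2 change was 0.76 ± 0.20 (SD, n = 5).

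Acpp (ENSMUSG00000032561, chr9:104288251-104337748, minus strand, 19 distinct exon intervals pooled over 6 transcripts), the phosphatase, was higher with IL-17A by a similar ratio in each culture. It was at 20.2 and 19.3 FPKM in the KO libraries with IL-17A, against 14.0 and 13.4 unstimulated. The Het libraries had 17.6, 27.5 and 29.3 FPKM with IL-17A, against 10.1, 19.0 and 18.7 unstimulated. Het culture 1 was the lowest of the 5 cultures in both conditions, and Het cultures 2 and 3 were the highest. The ratios were between 1.44 and 1.74 (geometric mean 1.52), the narrowest range among the 5 genes, and the log2 change was 0.57 ± 0.11 (SD, n = 5). Gene-level FPKM does not tell the membrane from the secreted form.

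Nppb (ENSMUSG00000029019, chr4:147985788-147987205, plus strand, 3 exons), the natriuretic peptide precursor, was the most abundant of the 5 genes, above 87.2% of tested genes by its mean of 46.0 FPKM. It was at 40.0 and 40.7 FPKM in the KO libraries with IL-17A, against 29.4 and 34.4 unstimulated. The Het libraries had 61.2, 74.7 and 59.7 FPKM with IL-17A, against 40.1, 40.7 and 39.0 unstimulated. The KO libraries with IL-17A were thus at the level of unstimulated Het libraries, and in each condition both KO libraries lay below all 3 Het libraries, Het culture 1 included. The ratios were 1.36 and 1.19 in the KO cultures, against 1.52, 1.84 and 1.53 in the Het cultures. The log2 change over the 5 cultures was 0.55 ± 0.23 (SD, n = 5).

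All 5 genes were higher with IL-17A in 5 of 5 cultures, as were 3.65% of the 12054 tested genes, and nothing is read from this count since the genes were chosen on it. By their averaged log2 change they stood at ranks 17 (Slc6a14), 24 (Slc5a1), 46 (Hcar2), 84 (Acpp) and 98 (Nppb) of 12054. Slc5a1 had the largest ratio within each of the 5 cultures, followed by Slc6a14. Hcar2, Acpp and Nppb came next in this order in 4 cultures, and in Het culture 2 Nppb (1.84) stood above Hcar2 (1.80) and Acpp (1.45). Over the cultures the ranges of neighbours in this order overlapped. By mean level per length, the order was Nppb (46.0 FPKM), Acpp (18.9), Slc6a14 (13.1), Hcar2 (8.78) and Slc5a1 (1.39), and over the libraries each of the last 4 overlapped its neighbour.

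**Figure D2:**
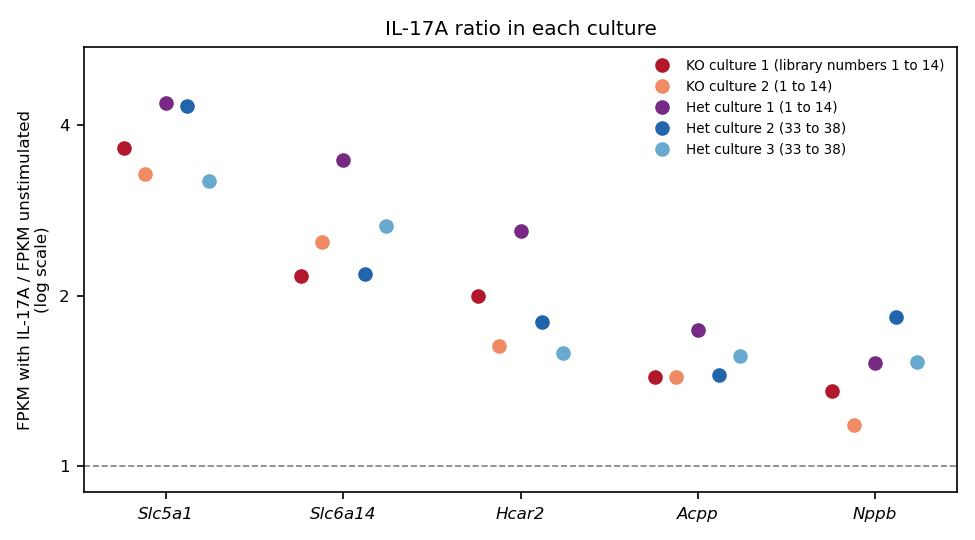
Ratio of the FPKM with IL-17A to the FPKM unstimulated (log axis) for each of the 5 cultures and 5 genes, with 1 point per culture and a dashed line at a ratio of 1. All 25 points lie above 1, Slc5a1 between 3.19 and 4.38, and for Nppb both KO cultures (1.36 and 1.19) lie below the 3 Het cultures (1.52 to 1.84).

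Whether loss of BCL10 went with another level of these genes was tested with limma over all 12054 genes, a contrast that had not chosen them. With IL-17A, none of the 5 genes passed an adjusted p of 0.05, and 0.0249% of all tested genes did. Nppb averaged 40.4 ± 0.505 FPKM in KO libraries (SD, n = 2) and 65.2 ± 8.27 in Het libraries (SD, n = 3), a log2 difference of -0.67 (SE 0.12, limma adjusted p = 0.507). Slc6a14 averaged 9.17 ± 0.959 FPKM in KO libraries and 25.1 ± 11.96 in Het libraries, a log2 difference of -1.23 (limma adjusted p = 0.507). Hcar2 averaged 4.93 ± 0.201 and 15.4 ± 8.44 FPKM in KO and Het libraries, a log2 difference of -1.29 (limma adjusted p = 0.507). For Acpp and Slc5a1 the log2 differences were -0.28 and -0.032, with limma adjusted p-values of 0.605 and 0.912. Both KO libraries lay below all 3 Het libraries for Nppb, Slc6a14 and Hcar2 (3 of 5), a pattern that 13.8% of tested genes showed.

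Without stimulation, limma called 0 of 12054 genes between KO and Het (562 at an unadjusted p under 0.05), so the share called was 0%. Nppb averaged 31.9 ± 3.48 FPKM in KO libraries (SD, n = 2) and 40.0 ± 0.870 in Het libraries (SD, n = 3), a log2 difference of -0.32 (SE 0.12, limma adjusted p = 0.728). Nppb was the only one of the 5 whose KO libraries both lay below all Het libraries, as did 15.4% of tested genes. Averaged over both conditions, limma again called 0 genes (2045 at an unadjusted p under 0.05). The averaged log2 difference was -0.50 for Nppb (SE 0.08), -1.09 for Slc6a14 (SE 0.40) and -1.21 for Hcar2 (SE 0.47), each with a limma adjusted p of 0.292. It was -0.22 for Acpp (SE 0.20, limma adjusted p = 0.488) and 0.0041 for Slc5a1 (SE 0.10, limma adjusted p = 0.981). The averaged difference counts both libraries of a culture as independent, and over culture means limma also called 0 genes (581 at an unadjusted p under 0.05).

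These genotype values depended on Het culture 1, the culture labelled Het with Bcl10 at the KO level. Without its 2 libraries, 4 of the 5 genes were lower in KO than in Het over both conditions by limma, where 32.3% of 12061 tested genes were called. Hcar2 then differed by -1.82 on the log2 scale (limma adjusted p = 0.000186), Slc6a14 by -1.61 (0.000217), Acpp by -0.47 (0.00673) and Nppb by -0.51 (0.0136). Over culture means, which do not count a culture's libraries as independent, limma called 1.48% of genes, with Hcar2 and Slc6a14 (limma adjusted p = 0.00629 each) among them and neither Acpp (0.0688) nor Nppb (0.0764). With IL-17A alone the same 4 genes were called, where 6.65% of genes were. Unstimulated, Slc6a14 and Hcar2 were called, where 0.97% of genes were. Slc5a1 differed by -0.026 over both conditions. In that comparison all KO libraries are numbered 1 to 14 and all Het libraries 33 to 38, so genotype, Bcl10 level and number set cannot be told apart in it. With the number set as a term, which rests on Het cultures 2 and 3 against 1, the KO libraries are in effect set against Het culture 1 alone, and limma called 0.0166% of genes and none of the 5. The averaged differences were then -0.050 for Slc6a14, 0.024 for Hcar2, 0.28 for Acpp (limma adjusted p = 0.718), 0.065 for Slc5a1 and -0.46 for Nppb (limma adjusted p = 0.605). Nppb kept its size in all 3 fits and passed the threshold only without Het culture 1 and with libraries counted as independent, while the differences of Slc6a14 and Hcar2 were near 0 once the set was a term and that of Acpp turned its sign.

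**Figure D3:**
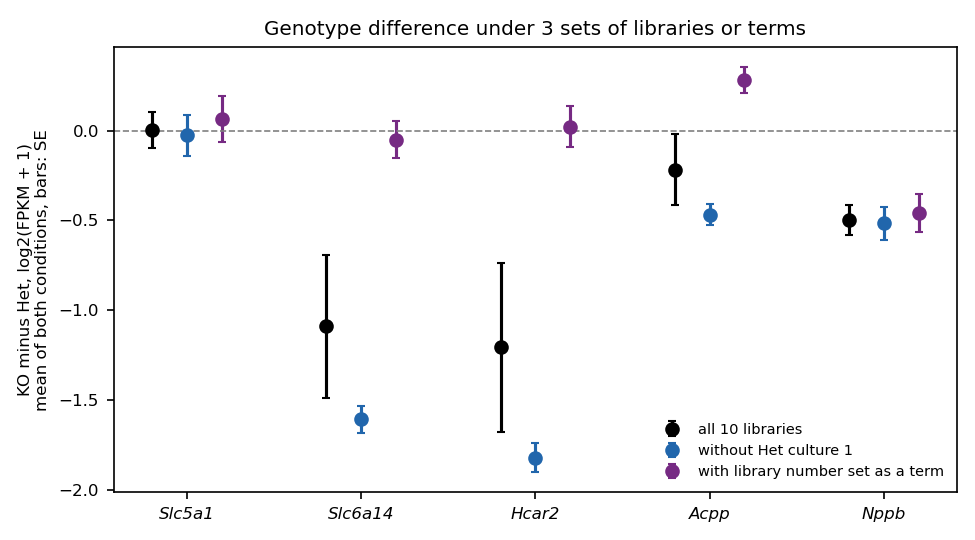
KO minus Het difference in log2(FPKM + 1), averaged over both conditions (points, with bars for the SE), for the 5 genes in limma with all 10 libraries, without Het culture 1, and with the library number set as a term. Nppb lies at -0.50, -0.51 and -0.46, while Slc6a14 (-1.09, -1.61 and -0.050) and Hcar2 (-1.21, -1.82 and 0.024) move to near 0 with the set as a term.

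The size of the IL-17A response was compared between genotypes by the interaction term. None of 12054 genes was called by limma, with 143 at an unadjusted p under 0.05 and, with culture as a block, 624 (0 called). Nppb had log2 changes of 0.43 and 0.24 in the KO cultures, against 0.60, 0.86 and 0.60 in the Het cultures, a difference of -0.35 (SE 0.17, limma adjusted p = 1.00). With culture as a block its SE was 0.12 and its limma adjusted p = 0.779. The differences were -0.28 for Slc6a14, -0.16 for Hcar2, -0.13 for Acpp and -0.071 for Slc5a1. The responses of both KO cultures lay below those of all 3 Het cultures for Nppb and Acpp (2 of 5), as they did for 10.6% of tested genes. Without the unstimulated library of Het culture 1 the differences turned to 0.30 for Slc6a14, 0.51 for Hcar2 and 0.15 for Acpp. The unstimulated library of KO culture 1, whose 10 most abundant genes took 12.6% of its FPKM total and in which Bcl10 was lowest, enters the KO responses. Without it the Nppb difference in response was -0.46 and the unstimulated KO minus Het difference of Nppb was -0.21.

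Between the number sets, a comparison added after the values were seen, 3 of the 5 genes differed with libraries counted as independent, and 2 of them over culture means. In the fit with genotype, condition and set, limma called 23% of tested genes for the set (1349 higher and 1428 lower in 33 to 38). The term rests on Het cultures 2 and 3 against Het culture 1, and this fit counts both libraries of a culture as independent. Hcar2 was higher in 33 to 38 by 1.85 on the log2 scale (SE 0.11, limma adjusted p = 0.000352). Slc6a14 was higher by 1.56 (SE 0.10, limma adjusted p = 0.000486) and Acpp by 0.75 (SE 0.07, limma adjusted p = 0.00285). With culture as a random block limma called 4.83% of genes and the same 3 of the 5 (limma adjusted p = 0.00456 for Hcar2, 0.00550 for Slc6a14 and 0.0167 for Acpp). Over culture means it called 0.174% of genes, with Hcar2 (limma adjusted p = 0.0170) and Slc6a14 (0.0179) among them and Acpp not (0.106). For Slc5a1 and Nppb the term was 0.091 and 0.058 (limma adjusted p = 0.622 and 0.706). As mean levels, Hcar2 was at 20.3 FPKM in 33 to 38 and 5.19 in 1 to 14 with IL-17A, a ratio of 3.91, and the unstimulated ratio was 4.68. The ratios were 3.21 and 3.55 for Slc6a14, 1.49 and 1.51 for Acpp, 1.42 and 1.15 for Nppb and 1.06 and 1.10 for Slc5a1. For Hcar2, Slc6a14 and Acpp, every library numbered 33 to 38 lay above every library numbered 1 to 14 of its condition, as for 21.3% of tested genes.

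Some cell-type markers also differed between the number sets, in a fit without a block that called 23% of all tested genes. Of those tested, the fit without a block called 4 of 4 melanocyte markers higher in 33 to 38, and lower 3 of 4 differentiated keratinocyte markers (Lor, Sbsn and Ivl), 2 of 5 basal ones (Itga6 and Itgb4), 1 of 2 sebocyte ones (Fasn) and the 1 tested leukocyte marker (Cd68, -0.76). Over culture means none of these was called. The 4 melanocyte markers Pmel, Mlana, Dct and Tyr summed to 229 to 340 FPKM in 33 to 38, against 120 to 159 in 1 to 14. Markers of differentiated keratinocytes, mostly Sbsn, summed to 68.7 to 81.3 FPKM in 33 to 38, against 98.3 to 154 in 1 to 14. Sebocyte markers, in effect Fasn, summed to 39.0 to 61.3 FPKM in 33 to 38, against 87.1 to 103 in 1 to 14. The other sebocyte markers were low, with Mgst1 at 1.83 and Scd3 at 0.190 FPKM on average, and Mgst1 was not called for the set. Leukocyte markers, in effect Cd68, summed to 5.10 to 6.74 FPKM in 33 to 38, against 7.83 to 10.5 in 1 to 14. As 5 of 7 leukocyte markers were at 0 in every library, this sum describes Cd68 and not a cell type. In the same way the sebocyte sum describes Fasn. Basal keratinocyte markers summed to 8351 to 9690 FPKM in 33 to 38 and 10485 to 11803 in 1 to 14. The part of these markers in the levels of Hcar2, Slc6a14 and Acpp was not tested, and in bulk RNA fewer cells of a type and less RNA per cell cannot be told apart. Fibroblast markers summed to 0.159 to 0.194 FPKM in 33 to 38, and at least 0.210 in 1 to 14. Of the tested fibroblast and endothelial markers, the fit without a block called 0 of 2 each for the set.

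None of the related transporters, receptors and enzymes that were tested was called for IL-17A, where 0.0498% of all tested genes were. Counts of 0 are thus near the share over all genes and do not set these lists apart from the 5 genes. Of those 5, the same fit called 1, or 3 with culture as a block. Nothing is read from this, since they were chosen on that change. The sugar transporter list also holds Pdzk1ip1 and carriers of other solutes, such as Slc5a3. Besides Slc5a1, 0 of its 7 tested genes were called for IL-17A in either direction by limma, with a median log2 change of -0.07. The counts were 0 of 18 for the other amino acid transporters (median -0.02), 0 of 7 for acid sensing and monocarboxylate transport (-0.02), 0 of 16 for acid phosphatases and extracellular nucleotides (-0.02) and 0 of 3 for natriuretic peptide processing and signalling (-0.08). The median over all tested genes was -0.0060, and limma called 0.0498% of them, or 0.108% with culture as a block, where the counts of these lists were again 0. Of 12 IL-17 panel genes, 10 were tested, with a median of 0.85. Nfkbiz, which encodes IκBζ, rose by 0.90 (limma adjusted p = 0.0419), a call it lost with culture as a block (limma adjusted p = 0.0693). With the block, S100a8 (calprotectin) rose by 0.88, Csf3 (a granulocyte growth factor) by 0.77 and Zc3h12a (Regnase-1, an RNase) by 1.35, with limma adjusted p-values of 0.0214, 0.0278 and 0.0354.

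Of the other sugar carriers, Slc2a1, the main facilitative glucose transporter of keratinocytes, averaged 120 FPKM and Slc2a5 (a fructose transporter) 5.99, both above Slc5a1 at 1.39. Slc5a3 (a myo-inositol transporter) averaged 2.30 FPKM, and its libraries with IL-17A overlapped those of Slc5a1. Among amino acid transporters, Slc38a2 averaged 179 FPKM, Slc7a5 102 and its partner Slc3a2 91.0, all above Slc6a14 at 13.1. Slc1a1, a glutamate transporter below the filter and named after its values were seen, had 0.647 and 0.612 FPKM in KO and 0.837, 1.66 and 2.26 in Het libraries with IL-17A, against 0.385 and 0.488 in KO and 0.529, 1.04 and 1.09 in Het unstimulated libraries. By the set term, Slc7a3, Slc7a11, Slc38a7 and Slc6a9 were higher in 33 to 38 and Slc36a1, Slc38a4, Slc6a6, Slc7a1 and Slc38a2 lower (4 and 5 of 18, by limma without a block), so those called did not share 1 direction. Over culture means none of the other genes of the 5 pathway lists was called for the set. Of the sugar transporters Slc2a3 (-1.06) and Slc2a5 (-0.60) were lower by that term and none was higher.

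For Hcar2, the Gi subunits through which it signals were present, with Gnai2 at 148 and Gnai3 at 114 FPKM on average, as was the monocarboxylate transporter Slc16a1 at 46.1. Hcar1, the neighbouring lactate receptor, was listed at 0 in all but 1 library. None of the 7 other tested genes of this list was called for the set, and whether they differ from Hcar2 in this was not tested. For Acpp, the low-molecular-weight phosphatase Acp1 averaged 32.1 FPKM, the highest of its list. Nt5e, another ectoenzyme that turns AMP into adenosine, averaged 27.4 FPKM and the adenosine receptor Adora2b 17.6. The nucleoside transporters Slc29a2 (-0.70) and Slc29a1 (-0.43), Entpd6 (-0.33), Panx1 (-0.26) and Acp5 (-0.25) were lower in 33 to 38 by the set term without a block, the opposite sign to Acpp. Acp7, another acid phosphatase gene, lay below the filter and was named after its values were seen. It had 1.67 and 1.41 FPKM in KO and 1.75, 1.06 and 1.08 in Het libraries with IL-17A, against 0.421 and 0.463 in KO and 0.983, 0 and 0.359 in Het unstimulated libraries, higher in 5 of 5 cultures.

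For Nppb, the receptors were low or listed at 0. Npr1, the receptor of brain natriuretic peptide, was at most 0.0265 FPKM, and the clearance receptor Npr3 was between 0.307 and 0.681 FPKM. Of the proteases, Furin averaged 14.7 FPKM and the insulin-degrading enzyme Ide 26.9, while Corin was at most 0.0380. Furin (-0.47) and the kinase Prkg2 (-0.41) were lower in 33 to 38 by the set term, by limma without a block. These levels are per length and describe RNA in the cultured keratinocytes only.

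The genes with the most similar profiles over the 10 libraries were sought by the root-mean-square difference between log2(FPKM + 1) values centred on each gene's mean. The libraries share depth, culture and number set, and the distance is a description. It spans libraries with and without IL-17A, so it includes the IL-17A change for which the genes under study had been chosen. Closeness to other genes higher with IL-17A therefore follows in part from that choice. This holds most for Slc5a1, whose KO and Het libraries overlapped in both conditions. Closest to Slc5a1 was Nfkbiz, which encodes the IL-17A effector IκBζ, at a distance of 0.124, followed by Sprr2g (0.210) and Cebpd (0.248), where the median distance over all tested genes was 0.545. This closeness depends on the pseudocount of 1. With 0.1, a choice added after the values were seen, Sprr2e (0.294) and Zc3h12a (0.304) came before Nfkbiz (0.442, rank 3), and the median was 0.921. Nfkbiz was at 48.9 and 49.1 FPKM in KO and 55.0, 40.7 and 50.0 in Het libraries with IL-17A, against 23.2 and 27.2 in KO and 23.3, 25.3 and 30.3 in Het unstimulated libraries. As for Slc5a1, its libraries of the number sets overlapped in both conditions. Sprr2g belongs to a family with near-identical copies, so its value is uncertain.

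Slc6a14 and Hcar2 stood close to each other (0.272) and to cytokine genes. Closest to Slc6a14 were the neutrophil chemokine Cxcl1 (0.245), the IL-36α gene Il1f6 (0.338) and Csf3 (0.349), where the median distance was 0.998. Closest to Hcar2 were Il1f6 (0.245), Mill1 (0.246), an MHC class I-like gene, and Il23a (0.250), the p19 subunit of IL-23, where the median was 0.984. With a pseudocount of 0.1, the 3 genes closest to Slc6a14 were the same, and for Hcar2 Il23a and Il1f6 came first while Mill1 was at rank 18. Cxcl1 was at 506 and 618 FPKM in KO and 985, 1898 and 1449 in Het libraries with IL-17A, against 343 and 334 in KO and 296, 966 and 853 in Het unstimulated libraries. Il1f6 was at 4.32 and 4.89 FPKM in KO and 6.67, 22.4 and 17.1 in Het libraries with IL-17A, against 3.59 and 1.98 in KO and 2.03, 14.4 and 11.0 in Het unstimulated libraries. By the set term without a block, Cxcl1 (1.18) and Csf3 (1.01) were the 2 of 10 tested IL-17 panel genes called, both higher in 33 to 38 (limma adjusted p = 0.0119 and 0.0228), and neither was called with the block or over culture means. Cxcl1 and Il1f6 had the split seen for Slc6a14 and Hcar2, with Het culture 1 beside the KO cultures when unstimulated and Het cultures 2 and 3 above.

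**Figure D4:**
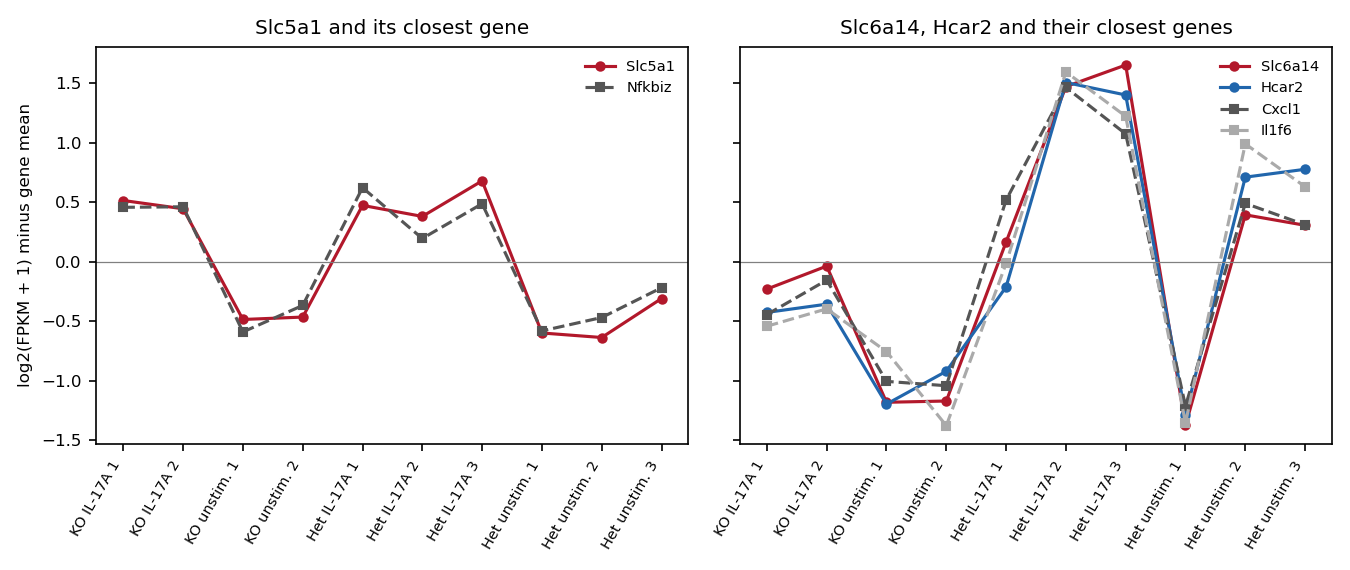
Log2(FPKM + 1) minus the gene's mean over the 10 libraries, for Slc5a1 with Nfkbiz (left) and for Slc6a14 and Hcar2 with Cxcl1 and Il1f6 (right), 1 point per library, with lines only to guide the eye. Slc5a1 and Nfkbiz, 0.124 apart on this scale, take a high level with IL-17A and a low one without, in all cultures alike. The genes on the right are, within each condition, highest in Het cultures 2 and 3.

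Acpp stood closest to Arrdc4 (0.150), to an unnamed gene (ENSMUSG00000048962, 0.151) and to Wdyhv1 (0.157), with a median distance of 0.438. Arrdc4, an arrestin-domain gene, was at 8.03 and 8.53 FPKM in KO and 7.59, 12.4 and 10.5 in Het libraries with IL-17A, against 5.82 and 5.49 in KO and 4.72, 10.5 and 7.99 in Het unstimulated libraries. Nppb stood closest to Trpv3 (0.170), a heat-activated cation channel of keratinocytes, to Il1f5 (0.179), which encodes the IL-36 receptor antagonist, and to Etohd2 (0.182), with a median of 0.413. Il1f5 was at 7.88 and 7.32 FPKM in KO and 8.81, 10.7 and 10.1 in Het libraries with IL-17A, against 5.33 and 4.59 in KO and 5.30, 6.84 and 6.48 in Het unstimulated libraries. The own spread around the mean was 0.414 for Acpp and 0.387 for Nppb, against 0.993 for Slc6a14 and 0.980 for Hcar2. With a pseudocount of 0.1, Arrdc4 and Wdyhv1 were still the closest to Acpp and Il1f5 was second for Nppb, while Trpv3 and Etohd2, at 0.351 to 2.66 FPKM over the libraries, were at ranks 53 and 6752 and the unnamed gene near Acpp at rank 155.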

How the data were processed

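RNA was sequenced from 10 keratinocyte libraries. The authors deposited FPKM values for 37991 Ensembl identifiers. HISAT2, SAMtools, StringTie and DESeq2 and the build mm10 are named, without versions or roles, per the submitters' processing notes; the annotation release and strand setting were not given in the sources. Since FPKM are no counts, count tests were left out, and overlapping models are uncertain without a known strand setting. Depths were estimated from the smallest values of genes with 1 exon and 300 to 3000 bp, of which 48.6% to 55.3% lay within 0.05 of whole fragments (10% if evenly spread); 3 fragments in 1 kb then equal 0.0590 to 0.188 FPKM. Fragment numbers are estimates, and such floors cover counting error only.

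The 12054 genes averaging 1 FPKM or more were fitted as log2(FPKM + 1) in limma 3.58.1 (R 4.3.3) with a mean-variance trend and 1 mean per group of genotype and treatment taken from the labels; tests were two-sided with Benjamini-Hochberg adjustment over all tested genes and a threshold of 0.05. Fold changes on this scale understate those of low genes. The code of the fit was run on simulated data with less spread than these data and no genotype, culture or set differences. That run does not show how well the fit does on these libraries. Numbers were taken to pair libraries within a genotype, and culture as a block is an alternative. Over genes, deviations from the group means correlated between the libraries of a culture at 0.227 in KO (1 value for 2 cultures). In Het they correlated at 0.607, 0.488 and 0.137. The split between Het culture 1 and the other Het cultures enters these Het values, and libraries of unequal numbers were not compared, so the pairing is an assumption. Members and gene lists were chosen with earlier results of these data known, and the comparison of number sets, its block and culture-mean fits and the closest profiles with a pseudocount of 0.1 were added after the values were seen. Named by rule are all members, pathway-list genes past the threshold for IL-17A or genotype, at most the 3 highest of each such list and the 3 closest profiles per member; genes called for the number set and Adora2b, Slc1a1, Acp7, the natriuretic receptors, Corin and Hcar1 were named after their values were seen. Identifiers were matched to symbols, exons and 3′ UTRs in the GENCODE annotation of GRCm38 (32919 of 37991 matched), and RefSeq promoters (GRCm38.p6) were matched by symbol for 4 of 5 members. Alternatives were other pseudocounts, filters and scalings, the block, left-out libraries and the number set.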

Additional observations from a re-analysis of the deposited data

How the results depend on the processing

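The alternatives moved counts of called genes, which are small with all 10 libraries. With the replicate block for culture, 13 genes were called for IL-17A averaged over both genotypes (6 without it), and 0 for IL-17A in Het (1 without) and 0 in KO (3 without). The block called 0 genes for the difference in response, as did the unpaired fit, and changed no call of a member in the genotype comparisons. For IL-17A in Het, 2 genes were called with a pseudocount of 0.1, 2 with TPM scaling and 0 without Het culture 1; for IL-17A in KO, 5 without a filter and 1 with TPM scaling.

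For KO minus Het unstimulated (0 genes), the counts were 2 without a filter, 117 without Het culture 1, 2 with the number set as a term, 8 within libraries 1 to 14 and 1 with only those groups fitted. For KO minus Het with IL-17A (3 genes), they were 6, 802, 4, 8 and 1 under the same settings, and 0 with TPM scaling. Averaged over conditions (0 genes), they were 1 without a filter, 1 with TPM scaling, 3901 without Het culture 1, 2 with the set term, 7 within libraries 1 to 14 and 178 over culture means without Het culture 1. For the difference in response (0 genes), they were 1 without a filter, 1 without Het culture 1 and 6 within libraries 1 to 14. For the number sets (2777 genes), they were 582 with culture as a random replicate block and 21 over culture means, where Acpp was no longer called. The cause of these moves was not tested. Leaving out each library in turn gave 1 to 7 genes for IL-17A averaged, 0 to 2 in Het, 0 to 12 in KO, 0 to 4 for KO minus Het unstimulated, 0 to 10 with IL-17A, 0 to 5 averaged and 0 to 6 for the difference in response.

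Nppb was lower in KO in each setting run. The sign turned for others, as log2 KO minus Het. With the set term and within libraries 1 to 14, it was 0.089 and 0.20 for unstimulated Slc6a14, 0.11 and 0.23 for unstimulated Hcar2, 0.35 and 0.40 for unstimulated Acpp, 0.22 and 0.16 for Acpp with IL-17A, and, averaged, 0.024 and 0.024 for Hcar2 and 0.28 and 0.28 for Acpp. Slc5a1 was -0.0022 unstimulated and -0.026 averaged without Het culture 1, and 0.016 (TPM scaling), 0.029 (set term) and 0.0063 (libraries 1 to 14) with IL-17A. Over left-out libraries Slc5a1 ran from -0.021 to 0.14 unstimulated, -0.097 to 0.053 with IL-17A and -0.029 to 0.055 averaged. The differences in response ran from -0.17 to 0.013 for Slc5a1, -0.74 to 0.30 for Slc6a14, -0.72 to 0.51 for Hcar2 and -0.35 to 0.15 for Acpp. A left-out library there leaves its culture unpaired. Without the unstimulated or the IL-17A library of Het culture 1, the IL-17A change in Het was 0.15 or 1.38 for Hcar2, 0.75 or 1.78 for Slc6a14 and 0.35 or 0.85 for Acpp. Over the alternatives, the limma adjusted p of the averaged genotype difference was lowest without Het culture 1 (over libraries or culture means), and otherwise at least 0.0933 for Nppb, Slc6a14 and Hcar2 and 0.156 for Acpp. Depth limits Slc5a1 most, with about 32 fragments in its lowest library.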
